A study of Mus musculus with 6 samples.

Results

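ATP-binding cassette (ABC) transporters and organic anion transporting polypeptides were followed across the cell types of the mouse brain after an experimental stroke. The members were taken by symbol from the gene table: each gene called Abc with a family letter from a to g and a number, and each gene called Slco with a digit, a letter and a digit. This gave 64 of 27998 genes, 50 of them ABC genes and 14 Slco genes. Brains of C57BL/6 mice aged 6 to 8 weeks were dissociated with papain 24 h after sham surgery (sham) or middle cerebral artery occlusion (MCAO, the blocking of a large brain artery), and 3' droplet single-cell libraries were made from the strained, myelin-depleted suspension, 3 per group. No transgene or drug is named for either group. The labels do not say whether a library is 1 animal or several, or which side of the brain was taken, so every p-value measures only the spread between libraries, which may be technical.

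After filters 52553 of 58528 barcodes remained, from libraries of 25135690 to 42848023 UMIs (counted RNA molecules), with a median of 2326 to 2399 UMIs per sham cell and 2755 to 3393 per MCAO cell. Cells were grouped by their RNA with all members left out, and the 34 clusters were named by marker genes that hold no member, 6 of them staying without a name, so a class name stands for cells like that type. Endothelial cells were 53.8% ± 0.705 of sham and 40.5% ± 0.986 of MCAO cells (SD, n = 3 libraries), microglia 23.9% ± 0.801 of sham and 21.3% ± 0.345 of MCAO cells and astrocytes 3.51% ± 0.149 of sham and 6.76% ± 0.225 of MCAO cells. No cluster met the marker rule for neurons. Of all barcode sequences, 1952 occurred in more than 1 library, 77 to 184 per pair of libraries.

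ABC transporters bind and split ATP to push substrates across a membrane, most of them outward. At the blood-brain barrier Abcb1a (P-glycoprotein), Abcg2 (breast cancer resistance protein) and Abcc4 on the blood side of endothelial cells return drugs and metabolites to the blood. Abca1 and Abcg1 export cholesterol to lipoproteins, most Abcd genes carry fatty acids into peroxisomes, several Abcb genes serve mitochondria, and Abce1 and the Abcf genes have no membrane part and act on ribosomes. Slco proteins exchange organic anions without ATP: Slco1c1 carries thyroxine, Slco1a4 bile acids, steroid conjugates and drugs, Slco2b1 steroid sulfates and statins, and Slco2a1 prostaglandins.

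Slco1c1 and Slco1a4 lie in a cluster of Slco1 genes on chromosome 6 (chr6:141524368-141570177, plus strand, and chr6:141805440-141856199, minus strand), and Abcb1a lies beside Abcb1b, its close copy, on chromosome 5 (chr5:8660077-8748575 and chr5:8798147-8866315, both plus strand, GENCODE vM21 gene models on mm10). These 4 genes carry the endothelial results below, in which the first 3 fell and Abcb1b, at a low level, rose, and their promoters are shown for that reason. Each sequence runs 5′ to 3′ on the gene's own strand from 250 bases before to 50 after a RefSeq transcript start on GRCm38.p6. Capitals mark every match on either strand to CTTTGA (a TCF/LEF core), ACGTG (a hypoxia response core), GCGTG (a xenobiotic response core) or TGACNNNGC (an antioxidant response core), none of which shares letters with another in these 4 sequences beyond the paired ACGTG matches of Slco1c1.
Slco1c1 promoter (chr6:141524104-141524403, plus strand): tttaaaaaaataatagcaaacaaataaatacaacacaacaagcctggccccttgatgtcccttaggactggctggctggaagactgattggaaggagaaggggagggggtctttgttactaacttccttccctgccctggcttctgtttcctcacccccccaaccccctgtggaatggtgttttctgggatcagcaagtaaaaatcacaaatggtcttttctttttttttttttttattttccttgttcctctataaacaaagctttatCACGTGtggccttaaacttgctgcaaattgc
Slco1a4 promoter (chr6:141856171-141856470, minus strand): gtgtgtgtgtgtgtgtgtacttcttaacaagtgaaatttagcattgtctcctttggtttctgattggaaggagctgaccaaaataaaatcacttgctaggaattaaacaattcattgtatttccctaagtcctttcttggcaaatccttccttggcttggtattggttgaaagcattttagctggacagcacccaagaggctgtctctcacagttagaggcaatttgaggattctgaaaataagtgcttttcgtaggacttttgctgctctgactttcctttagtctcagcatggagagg
Abcb1a promoter (chr5:8566841-8567140, plus strand): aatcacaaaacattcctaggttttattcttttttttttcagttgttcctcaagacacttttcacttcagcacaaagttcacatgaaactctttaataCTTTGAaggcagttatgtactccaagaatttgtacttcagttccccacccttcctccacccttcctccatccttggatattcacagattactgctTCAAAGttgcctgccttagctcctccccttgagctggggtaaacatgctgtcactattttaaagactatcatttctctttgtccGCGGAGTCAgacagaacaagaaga
Abcb1b promoter (chr5:8797897-8798196, plus strand): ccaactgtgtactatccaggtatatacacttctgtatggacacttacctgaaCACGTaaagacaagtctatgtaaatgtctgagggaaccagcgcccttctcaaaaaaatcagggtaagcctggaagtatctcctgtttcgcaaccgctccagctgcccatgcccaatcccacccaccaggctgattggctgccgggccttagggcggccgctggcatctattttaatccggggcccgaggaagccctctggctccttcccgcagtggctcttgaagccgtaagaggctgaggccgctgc

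The capitals in Slco1c1 are ACGTG read on both strands as 1 palindrome, those in Abcb1a are CTTTGA once on each strand and TGACNNNGC on the minus strand, and the capitals in Abcb1b are ACGTG on the minus strand. The Slco1a4 window holds none of these letters. Among all 32851 RefSeq promoters of this length, 16% hold CTTTGA, 19.6% ACGTG, 32.4% GCGTG and 12.4% TGACNNNGC. Among the 61 promoters matched to 50 of the 64 members the shares were 16.4%, 19.7%, 29.5% and 14.8%. The Abcb1a start shown lies 93.0 kb from the start of the GENCODE gene, and which start these cells use was not measured. At 86 of 300 positions the Abcb1a and Abcb1b windows carry the same base when laid side by side without gaps.

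In sham brains the cell classes differed in the transporters they carried. Levels are CPM, the UMIs of a gene relative to all UMIs of the class in a library, scaled by TMM (a library scaling that takes most genes as alike between libraries), and a level is compared for 1 gene across classes, not between genes. Member levels given below for single clusters or sub-clusters are CPM without TMM scaling. Endothelial cells held the highest sham level of Slco1a4 at 3008 CPM, against 284 CPM in pericytes, the next class. They also led for Abcg2 (1268 CPM, next fibroblasts with 273), Abcb1a (779 CPM, next fibroblasts with 149) and Abcc4 (68.8 CPM, next fibroblasts with 26.2). Slco1c1 was spread over 3 barrier and glial classes, with 954 CPM in endothelial cells, 368 in astrocytes and 206 in choroid plexus epithelium.

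Mural and stromal cells had other members. Abcc9, the sulfonylurea receptor subunit of a potassium channel, stood at 322 CPM in sham pericytes and 14.6 in fibroblasts, the next class. Slco3a1, which carries prostaglandins and thyroxine, was also highest in pericytes (273 CPM). Abca8a, Abcd3 (the main fatty acid carrier of peroxisomes) and Slco4a1 were highest in fibroblasts, at 69.4, 134 and 31.5 CPM. Microglia led for Slco2b1 (385 CPM, next border macrophages with 185 and endothelial cells with 149), Abcc3 (35.7) and Abcb4 (16.9), and border macrophages for Abca1 (173). Oligodendrocytes had 336 CPM of Abca2, a lipid carrier of myelinating cells, against 46.6 in astrocytes. Astrocytes led for Abcb9 (96.4), a peptide carrier of lysosomes, and choroid plexus epithelium for Abca4 (55.1) and Slco1a5 (11.4). The ribosome-acting Abce1, Abcf1, Abcf2 and Abcf3 had UMIs in all 13 classes. Abcf1 was highest in T or NK lymphocytes (151 CPM), endothelial cells (127) and pericytes (123), stood at 83.9 in microglia and 62.4 in astrocytes, and was lowest in choroid plexus epithelium (51.5) and neutrophils (33.2). The T or NK lymphocyte class may also hold B cells. Of the 64 members, 7 had no UMI in any cell of the 13 classes, which allows up to 3 UMIs each by counting error: Abca15, Abca16, Abcb5, Abcb11 (the bile salt pump of liver), Slco1a1, Slco6c1 and Slco6d1.

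**Figure D1:**
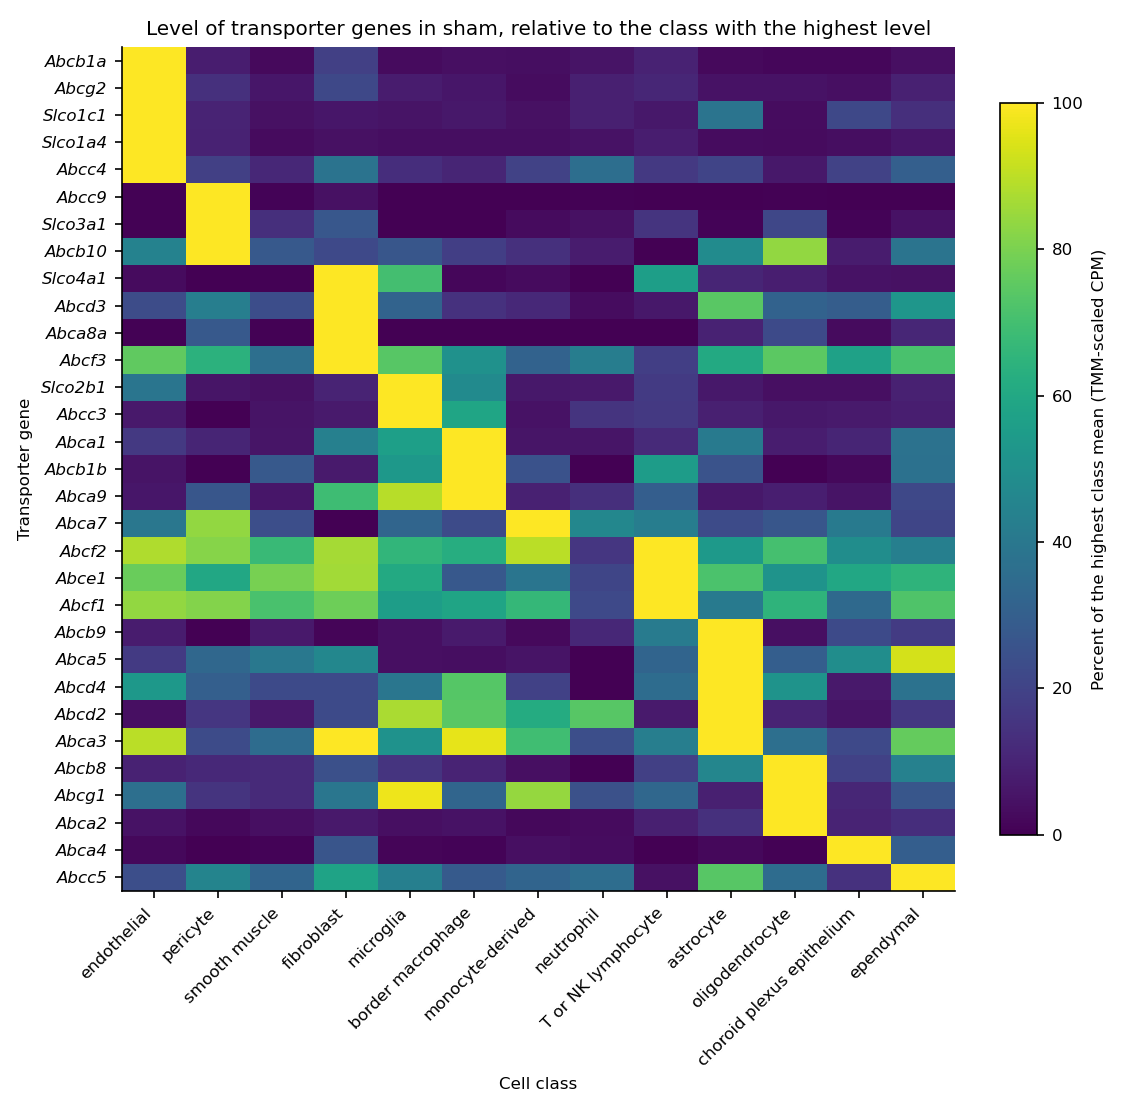
Mean TMM-scaled CPM of each member over 3 sham libraries as a percent of its highest class mean (colour, 0 to 100), for 31 of the 32 members (rows) that reach at least 20 CPM in a sham class, by cell class (columns). Slco1a4, Abcg2 and Abcb1a are brightest in endothelial cells and dark elsewhere, Abcc9 and Slco3a1 in pericytes, Slco2b1 in microglia and Abca2 in oligodendrocytes, while Abcf1 and Abcf3 are lit in most classes.

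In endothelial cells the main efflux pumps and both abundant Slco genes fell after MCAO, while Abcc4 and Slco2b1 did not pass the test. Abcb1a stood at 829.5, 768 and 739 CPM in the sham libraries and 357, 352 and 534 in the MCAO libraries, 779 ± 46.1 CPM in sham and 415 ± 104 in MCAO (SD, n = 3 each). The 3 MCAO libraries were below all sham libraries, and the third MCAO library lay well above the other 2. Its change was -0.91 ± 0.20 (SE) on the log2 scale, with an adjusted p of 0.023 (edgeR's quasi-likelihood test, Benjamini-Hochberg over all genes tested in the class, used for every adjusted p below). Without any 1 of sham 1, sham 2, sham 3, MCAO 1 or MCAO 2 this call was lost, with log2 changes of -0.95 to -0.81 over these 5 fits.

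Slco1a4 had 3075, 2918 and 3030 CPM in the sham libraries and 2036, 1905 and 1835 in the MCAO libraries. Slco1c1 had 967, 955 and 942 CPM in the sham libraries and 593, 573 and 615 in the MCAO libraries. Each fell in the 3 MCAO libraries without overlap, by 0.64 ± 0.041 and 0.68 ± 0.038 on the log2 scale (SE, adjusted p = 3.5e-10 and 5.0e-11). Abcg2 measured 1274, 1282 and 1247 CPM in the sham libraries and 928, 900.3 and 909 in the MCAO libraries, again without overlap, and its change was -0.47 ± 0.036 (SE, adjusted p = 3.3e-09). Within these 3 genes the libraries of a group lay close together, in contrast to Abcb1a. The drug carrier Abcc4 did not follow: it had 70.0, 68.7 and 67.8 CPM in the sham libraries and 75.4, 68.8 and 71.4 in the MCAO libraries, groups that overlap, with a change of 0.063 ± 0.054 (adjusted p = 0.35). Slco2b1 was 149 ± 9.99 CPM in sham and 147 ± 8.18 in MCAO, a change of -0.026 ± 0.053 (adjusted p = 0.72).

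Across the family, 39 of the 64 members had enough counts to be tested in endothelial cells. Of these 9 rose and 11 fell, against 24.1% and 22.3% of all 12484 genes tested, and their median log2 change was -0.10 beside -0.025 over all genes. The share of members called is near that of all genes. Among members at a level of at least 10 CPM and 10% of the highest class, 4 fell (the 4 above) and 3 rose. Abce1, a ribosome recycling factor, went from 21.6 to 31.5 CPM (0.55 ± 0.084, adjusted p = 2.8e-05) and Abcf2 from 37.2 to 47.8 (0.36 ± 0.062, adjusted p = 1.1e-04), each without overlap. Abca1, the cholesterol exporter, went from 28.8 to 34.3 CPM (0.26 ± 0.085, adjusted p = 0.019), with 1 MCAO library inside the sham range. The call was lost for Abca1 without sham 1, sham 2 or MCAO 2 (0.19 to 0.24).

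Low-level members moved by larger folds on few counts. Abcb1b, the second P-glycoprotein gene of mice, had 1.76, 1.60 and 0.790 CPM in the sham libraries and 5.88, 6.09 and 6.02 in the MCAO libraries, resting on 42 sham and 181 MCAO UMIs, and rose by 2.14 ± 0.24 on the log2 scale (adjusted p = 8.4e-07). Abcb1a and Abcb1b are close copies, and whether reads of either were counted for the other was not tested. Abcc1, an exporter of glutathione conjugates and leukotrienes, rose from 1.68 to 4.80 CPM (1.5 ± 0.27, adjusted p = 1.6e-04), and Slco2a1, the prostaglandin carrier, from 4.51 to 9.90 (1.12 ± 0.17, adjusted p = 2.4e-05). For both the groups did not overlap. In the capillary zone, described below, Slco2a1 went from 3.64 to 3.08 CPM and did not pass the test. Its MCAO mean was lower in 6 of the 10 endothelial sub-clusters with at least 20 cells in every library, at low levels and with no test. Abcc6, highest in endothelial cells of all classes, fell from 8.56 to 5.22 CPM (-0.71 ± 0.16, adjusted p = 0.0013), and Slco1a5 from 1.42 to 0.253 (-2.37 ± 0.52, adjusted p = 0.0011, on 44 and 8 UMIs). Slco1a5 is a near copy of Slco1a4, so its few UMIs may belong to that gene. Abcc9 went from 1.58 to 3.83 CPM (log2 change 1.24), at 0.491% of the sham pericyte level, and the summed pericyte markers were also higher in MCAO endothelial cells (104 to 121 CPM in sham and 164 to 173 CPM in MCAO). Whether pericyte RNA enters this value was not tested. Abca2 went from 16.1 to 13.1 CPM (-0.29 ± 0.11, adjusted p = 0.04, groups overlapping), under 5% of the oligodendrocyte level, and lost its call without sham 1, sham 2, MCAO 1 or MCAO 3 (-0.27 to -0.22). Abcg1, Abcd3, Abcc5, Slco3a1 and Slco4a1 did not pass the test, with sham means of 22.0, 31.2, 14.5, 2.05 and 0.906 CPM and MCAO means of 20.3, 29.1, 13.5, 2.90 and 1.06 CPM.

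The cells behind these sums differ between the groups. Sham endothelial cells lay mostly in clusters led by Ndnf (43.6% of sham, 3.42% of MCAO endothelial cells) and Cxcl12 (41.3% and 1.83%), while an Ackr1-led cluster held 0.158% of sham and 31.8% of MCAO endothelial cells. The 12 endothelial markers summed to 28819 to 30194 CPM in sham and 25099 to 25342 CPM in MCAO, and hemoglobin genes and other red cell markers to 23.6 to 34.0 CPM in sham and 572 to 989 CPM in MCAO; all 5 red cell markers were higher in MCAO. Astrocyte markers summed to 205 to 257 CPM in sham and 419 to 508 CPM in MCAO, with 12 of 12 higher in MCAO. Their part in the member changes was not tested. In such sums, fewer cells of a kind and less RNA per cell cannot be told apart.

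Endothelial cells were then divided by position along the vessel tree, again without the members, into 16 sub-clusters that were named by zone markers. Capillary cells were 87.9% ± 0.0657 of sham and 62.4% ± 0.428 of MCAO endothelial cells, arterial cells 6.75% ± 0.326 of sham and 4.94% ± 0.247 of MCAO, venous cells 3.79% ± 0.223 of sham and 5.01% ± 0.129 of MCAO and a Plvap-positive group, whose marker lines fenestrated vessels, 1.03% ± 0.237 of sham and 1.26% ± 0.164 of MCAO. Sub-clusters with no zone held 0.577% ± 0.0715 of sham and 26.4% ± 0.325 of MCAO endothelial cells.

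The largest falls among the zones were in venous cells. Slco1c1 had 451, 388 and 438 CPM in the sham libraries and 116, 96.0 and 130.3 in the MCAO libraries, a change of -1.91 ± 0.11 (SE, adjusted p = 6.1e-25). Abcb1a had 719, 713 and 667 CPM in the sham libraries and 248, 184 and 322 in the MCAO libraries, and Slco1a4 2332, 2273 and 2352 CPM in the sham libraries and 985, 846 and 842 in the MCAO libraries. In both, every MCAO library was under every sham library, with changes of -1.48 ± 0.16 (adjusted p = 3.5e-05) and -1.38 ± 0.075 (adjusted p = 2.9e-27). Abcg2 fell from 981 to 581 CPM (-0.76 ± 0.080, adjusted p = 5.6e-13) and Slco2b1 from 183 to 127 (-0.53 ± 0.13, adjusted p = 8.2e-04). Slco2a1 moved the other way, with 13.2, 19.9 and 20.1 CPM in the sham libraries and 74.1, 46.9 and 79.2 in the MCAO libraries and a rise of 1.88 ± 0.27 (adjusted p = 1.7e-08). Abcf2 and Abce1 also rose, by 1.20 and 0.92 on the log2 scale (adjusted p = 5.7e-05 and 0.0044). In all 16 members were tested, of which 3 rose and 5 fell, beside 18.8% and 16.3% of all genes. Abcc4 went from 64.7 to 46.2 CPM and did not pass the test (adjusted p = 0.055), though it did without MCAO 1 (-0.57).

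In capillary cells the falls were smaller. Slco1c1 went from 1018 to 841 CPM (-0.28 ± 0.040, adjusted p = 4.7e-06), Slco1a4 from 3229 to 2758 (-0.23 ± 0.040, adjusted p = 6.7e-05) and Abcg2 from 1357 to 1204 (-0.17 ± 0.038, adjusted p = 8.9e-04), each without overlap. Abcb1a, at 874, 807 and 780.2 CPM in the sham libraries and 490.3, 487 and 732 in the MCAO libraries, did not pass the test (-0.53 ± 0.20, adjusted p = 0.14). The third MCAO library was close to the sham range. Without that library it passed, at -0.75. Here Abcc4 rose, with 70.4, 68.9 and 67.1 CPM in the sham libraries and 92.7, 86.4 and 87.7 in the MCAO libraries and a change of 0.37 ± 0.061 (SE, adjusted p = 2.4e-05). Abca1 rose from 28.2 to 34.5 CPM (0.29 ± 0.10, adjusted p = 0.022), and Abcf1, a translation factor, fell from 129 to 102 (-0.34 ± 0.095, adjusted p = 0.025). Calls were lost for Abca1 without sham 1, sham 2 or MCAO 2 (0.21 to 0.27) and Abcf1 without sham 2 or MCAO 1 (-0.38 to -0.33). The 36 members tested gave 7 higher and 5 lower, beside 15.4% and 12.7% of all genes. With zones from per-cell marker scores 1 was higher in place of 7, and in venous cells 5 in place of 3 rose and 9 in place of 5 fell. Of the 7 capillary members, 5, among them Abcb1b and Abcc1, were under 5 CPM in both groups.

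Arterial cells had the same 3 falls and no rise past the test. Slco1c1 went from 870.3 to 656 CPM (-0.41 ± 0.076, adjusted p = 1.3e-04), Slco1a4 from 1964 to 1597 (-0.30 ± 0.066, adjusted p = 0.0012) and Abcg2 from 798 to 661 (-0.27 ± 0.077, adjusted p = 0.014). Abcb1a had 634, 591 and 586 CPM in the sham libraries and 317, 336 and 557 in the MCAO libraries and did not pass (-0.60 ± 0.21, adjusted p = 0.14); without MCAO 3 it passed, at -0.88. Of 15 members tested 0 rose and 3 fell, beside 7.02% and 6.5% of all genes. With any 1 of the 6 libraries left out 1 member rose, Abcb1b, which had too few counts to be tested with all 6, and with zones from per-cell marker scores 2 rose. The call was lost for Abcg2 without sham 1, sham 3 or MCAO 1 (-0.26 to -0.24). In Plvap-positive cells 0 of 5 tested members rose and 0 fell by edgeR, with 0 at an unadjusted p under 0.05, beside 5.19% and 3.75% of all genes called. There Slco1a4 was at 185 and 212 CPM and Slco1c1 at 75.5 and 82.7 CPM in sham and MCAO, while Abcg2 (735 and 689) was nearer to its level in the other zones.

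**Figure D2:**
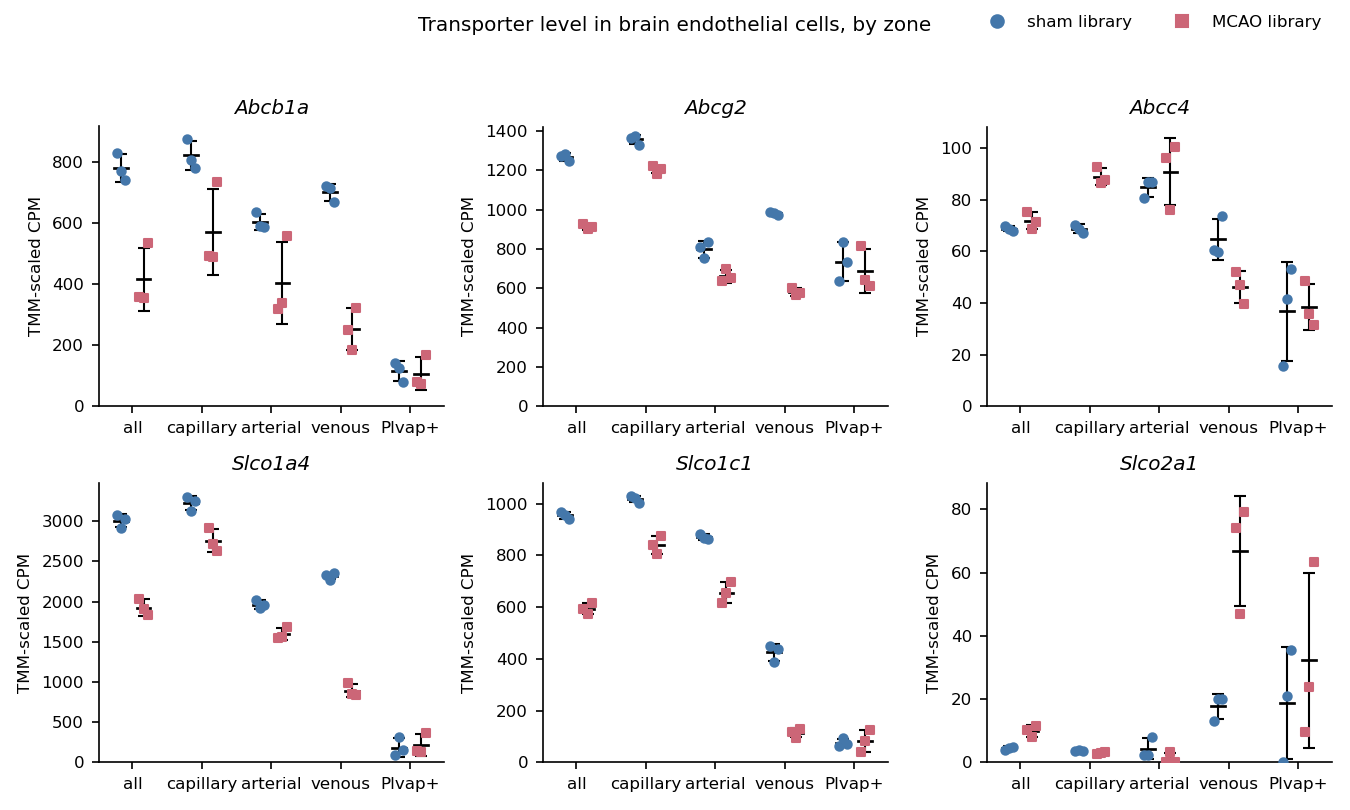
TMM-scaled CPM in each library (circles, sham; squares, MCAO; black bars, mean ± SD of 3) of 6 members in all endothelial cells and in the 4 zones. Among the 4 zones, the MCAO squares of Abcb1a, Abcg2, Slco1a4 and Slco1c1 lie furthest under the sham circles in venous cells, those of Slco2a1 lie above them there, and those of Abcc4 lie above them in capillary cells.

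The difference between zones was itself tested, in 1 model over both zones with library as a term. The model shares the spread between libraries across genes, so the smallest p-values do not rest on a gene's own libraries alone. The fall was larger in venous than in capillary cells for Slco1c1, with a difference of -1.59 ± 0.10 (SE, adjusted p = 3.1e-50) on the log2 scale, Slco1a4 at -1.11 ± 0.059 (SE, adjusted p = 1.7e-74) and Abcb1a at -0.91 ± 0.084 (SE, adjusted p = 6.7e-25). For Abcg2 the difference was -0.54 ± 0.070 (SE, adjusted p = 3.4e-13). In all 11 members differed, beside 17.5% of all genes, Abcc4, Slco2b1, Slco2a1, Abce1, Abcf1, Abcf2 and Abcc6 being the others. Of these, the difference was no longer past the threshold for Abce1 without sham 2, sham 3, MCAO 1 or MCAO 3 (0.69 to 0.78) and Abcf1 without MCAO 3 (0.43). Between arterial and capillary cells 0 members differed by edgeR, beside 1.25% of all genes; 2 had an unadjusted p under 0.05.

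A single sub-cluster weighs on the venous result. It is led by Ackr1, the venular chemokine receptor, with Csf3 and Selp, and held 323 of 568 MCAO and 2 of 505 sham venous cells. In it Slco1c1 was at 49.4 ± 9.87 CPM, Slco1a4 at 340.3 ± 73.6, Abcb1a at 142 ± 48.0 and Slco2a1 at 80.7 ± 23.6 (SD, n = 3). The other venous sub-cluster, led by Vcam1, went from 428 to 243 CPM for Slco1c1, 2330.2 to 2007 for Slco1a4 and 17.8 to 23.8 for Slco2a1. Without the Ackr1-led cells, an alternative added after the data were seen, the venous changes were -0.84 for Slco1c1, -0.62 for Abcb1a and -0.22 for Slco1a4, all still past the threshold. Abcg2 (-0.19) was not, Slco2b1 turned to 0.19, and Slco2a1 had too few counts to be tested. Only Slco1c1 then differed between venous and capillary cells (-0.57).

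The same 4 genes were lower within single capillary sub-clusters. In each of the 6 capillary sub-clusters with at least 20 cells in every library, the MCAO mean was below the sham mean for Abcb1a, Slco1a4, Slco1c1 and Abcg2. The medians were 61.3%, 73.5%, 75.8% and 76.9% of sham (a description in CPM without TMM scaling, with no test). These 6 do not cover all capillary cells, as 1 capillary sub-cluster is not among them. For Slco1a4 the ratio ran from 70.2% to 79.4% of sham over these sub-clusters. Abcc4 did not share this, with a median of 110% and a range from 92.2% to 155%.

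The sub-clusters of no zone, almost all MCAO cells, were low in barrier transporters. A group led by Pdlim1 and Upp1 (1517 MCAO and 8 sham cells) had Abcb1a at 137 ± 46.7 CPM, Slco1a4 at 507 ± 10.2, Slco1c1 at 177 ± 18.3 and Abcg2 at 477 ± 4.05. A group led by Scgb3a1 (958 MCAO and 15 sham cells) was higher, with 331, 1654, 495 and 704 CPM, and a Cxcl10-led group (504 and 54 cells) had 273, 1145, 508 and 650.1 CPM. When these 3 groups were left out of the endothelial class, the log2 changes were -0.42 for Slco1c1, -0.36 for Slco1a4 and -0.27 for Abcg2, past the threshold, and -0.64 for Abcb1a, no longer past it. Abcc4 then passed, at 0.25, and the call for Abca1 was lost (0.20).

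**Figure D3:**
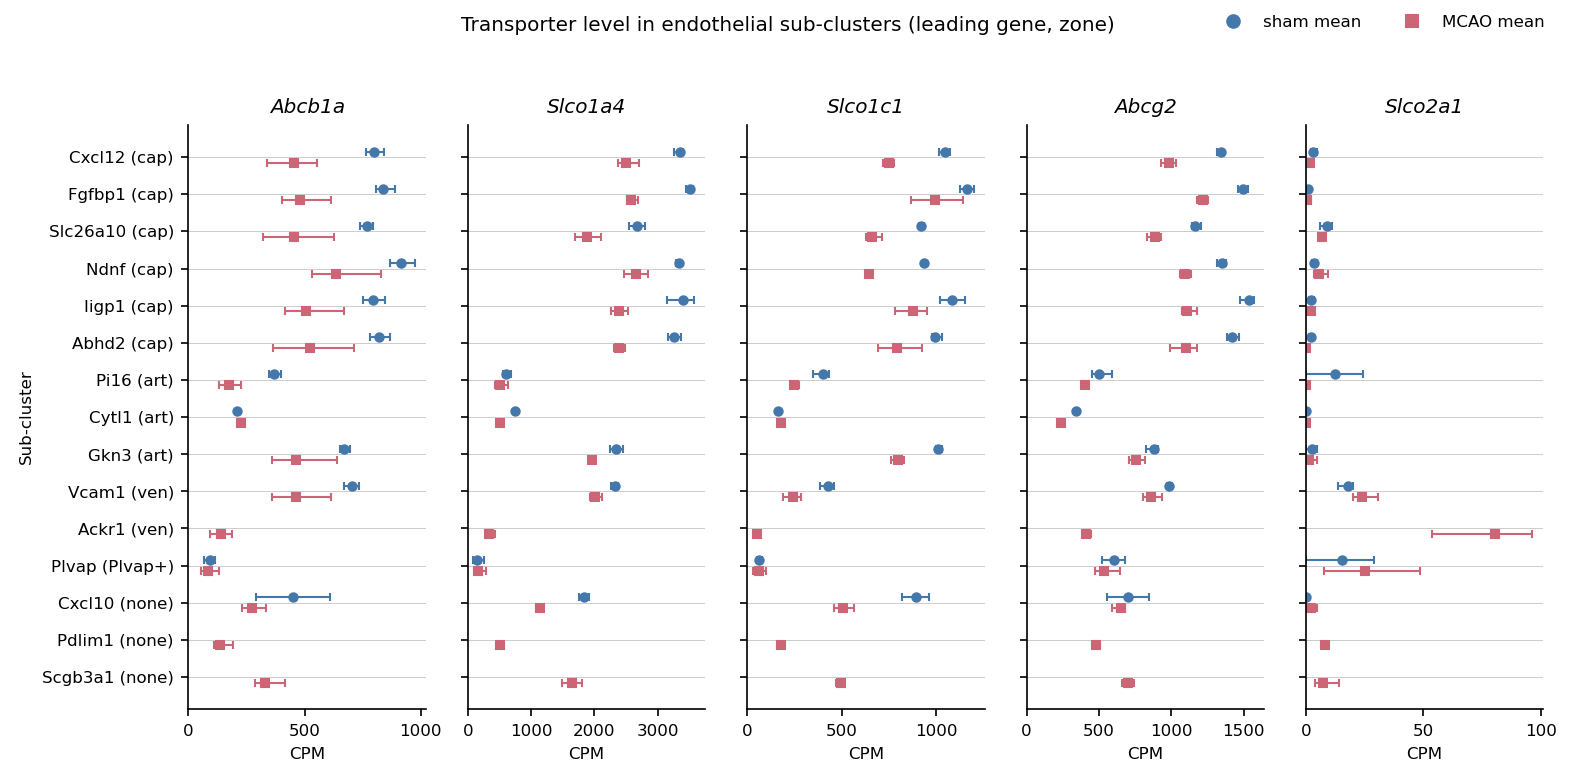
Mean CPM, without TMM scaling, of 5 members in 15 of the 16 endothelial sub-clusters, named by leading gene and zone (circles, sham; squares, MCAO; bars, lowest to highest library with at least 20 cells). In capillary (cap) sub-clusters the squares of Abcb1a, Slco1a4, Slco1c1 and Abcg2 lie under the circles, and the Ackr1-led and Pdlim1-led sub-clusters, which have no sham point, are low in these 4, Slco2a1 being highest in the Ackr1-led one.

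Genes that work with these transporters were counted from lists set with earlier results of these data known, beside the 24.1% higher and 22.3% lower of all genes in endothelial cells. Of the other solute carriers of the barrier, 3 rose and 13 fell of 19 tested, with a median log2 change of -0.67. The monocarboxylate carrier Slc16a4 (from 245 to 114 CPM, -1.10) and the taurine carrier Slc6a6 (from 1014 to 529, -0.94) were the lowest, and the cationic amino acid carrier Slc7a3 (0.54) and the nucleoside carrier Slc29a1 (0.45) the highest. The glucose carrier Slc2a1 was the third that rose (from 2605 to 3348 CPM, 0.36). In venous cells 0 rose and 14 fell of 17 tested, beside 18.8% higher and 16.3% lower of all genes there. For drug and steroid metabolising enzymes the endothelial counts were 3 higher and 8 lower of 19, with the epoxide hydrolase Ephx1 (from 70.8 to 30.3 CPM, -1.22) and the glutathione transferase Gsta4 (from 553 to 295, -0.91) lowest and Por, the electron donor of cytochromes P450, 0.28.

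Lipid efflux partners leaned upward in count: 7 rose and 2 fell of 17 tested. Soat1, which esterifies cholesterol, and the acid lipase Lipa rose by 1.20 and 0.52, and the phospholipid transfer protein Pltp fell from 1769 to 744 CPM (-1.25). Among thyroid hormone and prostanoid genes 5 rose and 3 fell of 14 tested. Klf9, a thyroid hormone and glucocorticoid target, fell by 0.49 on the log2 scale. The prostaglandin synthesis genes Ptgs2 and Ptges rose by 0.87 and 0.85. Of the regulators of drug and sterol response 2 rose and 2 fell of 12 tested: the glucocorticoid receptor Nr3c1 (-0.55) and Ppard (-0.25) fell, and Srebf1 (0.26) and Nfe2l2 (0.25) rose. Among ABC genes with other symbols and their partners 1 rose and 3 fell of 7 tested, with Tapbp (-0.32) and Pex19 (-0.22) lowest. Every change given in these sentences passed the edgeR threshold, with adjusted p-values from 2.1e-14 to 0.02.

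In pericytes Slco3a1 fell and Abcc9 did not pass the test. Slco3a1 had 252, 345 and 222 CPM in the sham libraries and 97.9, 118 and 155 in the MCAO libraries, without overlap, and a change of -1.13 ± 0.20 (SE, adjusted p = 3.5e-05). Abcc9 had 342, 303 and 320.2 CPM in the sham libraries and 332, 325 and 354 in the MCAO libraries, groups that overlap, and a change of 0.068 ± 0.15 (adjusted p = 0.84). Abcg2 fell from 176 to 109 CPM (-0.65 ± 0.23, adjusted p = 0.044), at 13.9% of its sham endothelial level, and the endothelial markers in pericytes also went down (3737 to 4149 CPM in sham and 2872 to 2997 CPM in MCAO), and whether this is pericyte RNA was not tested. Its call was lost without sham 1, sham 2, MCAO 2 or MCAO 3 (-0.66 to -0.44). Of 10 members tested 0 rose and 3 fell, beside 8.5% and 6.14% of all genes. The pericyte class held 183 sham and 618 MCAO cells. At resolution 2.0 a cluster of 552 cells was named pericyte. A Ccl11-led cluster of 449 cells, with scores of 0.464 for pericytes and 0.379 for smooth muscle, then stayed without a name. The pericyte class may thus hold cells of different kinds. The change of Slco3a1 differed between pericytes and endothelial cells by -1.56 ± 0.37 (SE, adjusted p = 0.0017) and that of Abcc9 by -1.09 ± 0.32 (SE, adjusted p = 0.026), the 2 members that did, beside 3.21% of all genes. The count of 2 became 0 without sham 2 or MCAO 1 and 1 without sham 1, MCAO 2 or MCAO 3. In sham endothelial cells Abcc9 was at 0.491% and Slco3a1 at 0.749% of the pericyte level, and whether pericyte RNA enters these endothelial values was not tested.

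In smooth muscle 0 of 22 tested members rose and 2 fell (all genes, 11.3% and 9.67%), and the 2, Slco1a4 and Slco1c1, were under 5% of their endothelial level; the threshold was missed by Slco1a4 without sham 3 (-0.39) and Slco1c1 without sham 2, sham 3 or MCAO 3 (-0.53 to -0.34). In fibroblasts Abca8a, a lipid transporter gene with near copies Abca8b, Abca9 and Abca6, fell from 69.4 ± 15.4 to 29.8 ± 8.62 CPM (-1.21 ± 0.35, adjusted p = 0.048). Its call was lost with any 1 of the 6 libraries left out (-1.42 to -0.99). It was the only call there among 12 members tested (all genes, 2.28% higher and 1.99% lower).

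More members passed the test in microglia than in any other class. Of 35 tested, 9 rose and 18 fell, beside 29.8% and 31.7% of all genes, with a median log2 change of -0.32 beside -0.046 over all genes. Slco2b1, the organic anion carrier of this class, had 382, 375 and 398 CPM in the sham libraries and 155, 161 and 178 in the MCAO libraries, without overlap, a change of -1.23 ± 0.055 (SE, adjusted p = 2.1e-13). Abca9 had 35.8, 46.7 and 46.8 CPM in the sham libraries and 10.7, 8.22 and 10.7 in the MCAO libraries and fell by 2.12 ± 0.13 (adjusted p = 6.0e-11). Of the peroxisomal fatty acid carriers, Abcd3 fell from 42.7 to 34.2 CPM (-0.32 ± 0.083, adjusted p = 0.0024), while Abcd2 did not pass (-0.082 ± 0.12). Abcb4, a phospholipid flippase, fell by 1.08, Abcc3, an exporter of conjugates, by 1.01, Abcc5, an exporter of cyclic nucleotides, by 0.77, Abca3, a phospholipid carrier, by 0.69, and Slco4a1, a thyroid hormone carrier, by 0.68 on the log2 scale, with adjusted p-values from 2.9e-08 to 7.4e-04. The 2 groups did not overlap for any of these 8 genes.

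The 7 members with at least 10 CPM and 10% of the highest class that rose in microglia were 3 ribosome-acting, 2 mitochondrial and 2 cholesterol genes. Abce1 had 17.2, 15.3 and 18.8 CPM in the sham libraries and 38.7, 33.9 and 38.6 in the MCAO libraries (1.11 ± 0.11, adjusted p = 2.4e-08), and Abcf2 26.5, 31.6 and 25.3 CPM in the sham libraries and 52.5, 50.4 and 51.2 in the MCAO libraries (0.89 ± 0.091, adjusted p = 5.7e-08). Abcf1 rose by 0.43, and the mitochondrial Abcb6 and Abcb8 by 0.73 and 0.43. The cholesterol exporters moved little: Abcg1 went from 58.7 to 70.0 CPM (0.25 ± 0.066, adjusted p = 0.0025) and Abca1 from 97.9 to 108 (0.15 ± 0.055, adjusted p = 0.028). The other 2 that rose, Abcc9 (from 0.830 to 2.54 CPM, 1.58 ± 0.38, adjusted p = 0.0014) and Slco3a1 (from 0.875 to 2.15 CPM, 1.24 ± 0.42, adjusted p = 0.016), had the largest log2 changes of the 9 and sham levels at 0.258% and 0.321% of pericytes. Abcc1, Abcc4 and Abcb1b did not pass the test. Not past the threshold with 1 library left out were Abca1 without sham 3 or MCAO 1 (0.13 to 0.15), Abcb8 without sham 2, sham 3 or MCAO 3 (0.32 to 0.39) and Slco3a1 without sham 2 (0.95).

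Different clusters held the class in the 2 groups. Of sham microglia 95.9% lay in a cluster led by P2ry12, Siglech and Slc2a5, which held 1.32% of MCAO microglia; of MCAO microglia 52.0% lay in a Ccl12-led, 36.8% in an Mmp12-led and 8.81% in an Spp1-led cluster. The 13 microglia markers summed to 47738 to 51015 CPM in sham and 29809 to 32054 CPM in MCAO, and 12 of them fell. Slco2b1 followed these clusters: it was at 412 ± 15.5 CPM in sham and 461 ± 53.0 in MCAO cells of the P2ry12-led cluster, 274 ± 30.6 and 254 ± 19.9 in the Ccl12-led one, and 73.2 ± 6.16 and 77.1 ± 14.4 in MCAO cells of the Mmp12-led and Spp1-led clusters. Abca9 went along, at 46.9 and 42.1 CPM, 18 and 17.8, then 2.02 and 3.99. Within a cluster present in both groups these 2 genes differed less between sham and MCAO than between clusters. Without the Mmp12-led and Spp1-led clusters, which had the lowest microglia marker scores, the change of Slco2b1 was -0.61 and of Abca9 -1.29. Abca1 turned to -0.17, past the threshold in the other direction, Abcg1 to -0.0053 and Slco4a1 to 0.036, and Abcd3 lost its call (-0.15).

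**Figure D4:**
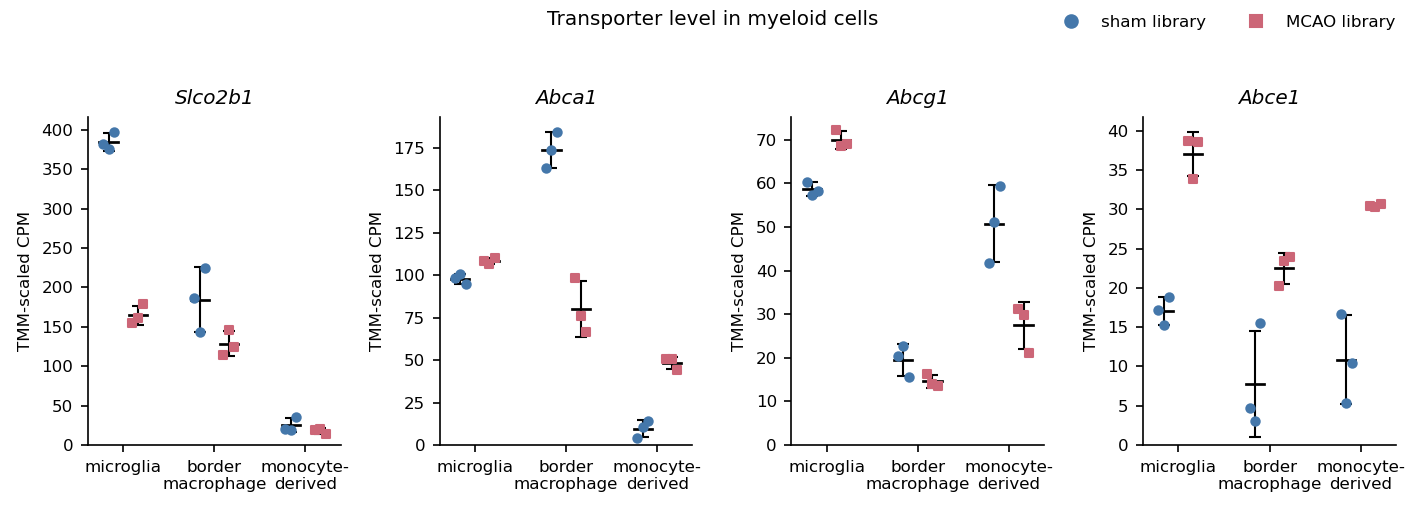
TMM-scaled CPM in each library (circles, sham; squares, MCAO; black bars, mean ± SD of 3) of Slco2b1, Abca1, Abcg1 and Abce1 in microglia, border macrophages and monocyte-derived cells. Abca1 is lower in MCAO border macrophages and higher in MCAO monocyte-derived cells, and Abce1 is higher in MCAO in all 3 classes.

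Against endothelial cells, the response of microglia differed for 14 members, beside 40.3% of all genes. Slco2b1 differed by -1.15 ± 0.056 (SE, adjusted p = 9.9e-20), its change being lower in microglia, Abce1 by 0.61 ± 0.13 (SE, adjusted p = 1.9e-04) and Abcf2 by 0.59 ± 0.10 (SE, adjusted p = 1.0e-05), where the rise was larger in microglia. Abcb1b rose in endothelial cells and went from 14.3 to 15.4 CPM in microglia, a difference of -1.99 ± 0.28 (SE, adjusted p = 1.5e-07). The difference was lost for Abca3 without sham 3 or MCAO 1 (-0.39 to -0.36).

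Border macrophages, the Mrc1-positive cells of the brain's coverings and vessel walls, lay in 1 cluster in both groups. Abca1 had 163, 173 and 184 CPM in the sham libraries and 98.3, 75.9 and 66.4 in the MCAO libraries there, without overlap, and fell by 1.11 ± 0.14 (adjusted p = 4.1e-09), where its change in endothelial cells was a rise; that difference was not tested. Abcb1b (from 26.9 to 14.9 CPM, -0.85 ± 0.29, adjusted p = 0.023), Abca3 (-0.79, adjusted p = 0.042, groups overlapping) and Abcd4, the lysosomal cobalamin carrier (-0.69, adjusted p = 0.044), fell too. Abce1 was the only member that rose (from 7.77 to 22.5 CPM, 1.44 ± 0.38, adjusted p = 0.0026). Slco2b1 fell from 185 to 128 CPM (-0.53 ± 0.13, adjusted p = 0.0016), with 1 library of each group overlapping. With 1 library left out calls were lost for Slco2b1 without sham 3 (-0.34), Abcb1b without sham 1, sham 3 or MCAO 3 (-0.73 to -0.70), Abcd4 without any 1 library but sham 1 (-0.76 to -0.60) and Abca3 without any 1 library but sham 2 (-0.88 to -0.56). In all 1 rose and 10 fell of 21 tested, beside 15.9% and 14.2% of all genes, and 4 of the 10 (Slco1a4, Slco1c1, Abcg2 and Abcb1a) were under 10% of their endothelial level.

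In monocyte-derived cells Abca1 rose, with 4.18, 10.8 and 14.0 CPM in the sham libraries and 50.7, 50.3 and 44.2 in the MCAO libraries, a change of 2.26 ± 0.36 (SE, adjusted p = 1.0e-04). Abcc3 (from 1.79 to 12.7 CPM, 2.47, adjusted p = 0.028) and Abce1 (from 10.9 to 30.4, 1.59, adjusted p = 0.0054) rose as well; Abcc3 had UMIs in 1 of the 3 sham libraries. Abca7, which moves phospholipids during phagocytosis, fell by 1.53, Abcd2 by 1.06 and Abcg1 by 0.89 (adjusted p from 0.017 to 0.042). With 1 library left out the threshold was missed by Abca7 without sham 3 (-0.98), Abce1 without sham 2 (1.21), Abcc3 without sham 1 or sham 3 (1.96 to 2.07), Abcd2 without sham 2 or sham 3 (-1.11 to -0.78) and Abcg1 without sham 2 or sham 3 (-0.87 to -0.76). Of 23 tested 3 rose and 6 fell, beside 13.9% and 12.6% of all genes. This class is not the same cells in both groups: an Arg1-led cluster held 79.3% of the MCAO and 0 of 131 sham cells, the rest lying in a cluster led by Plac8 and Ly6c2. Abca1 was at 51.8 ± 2.65 CPM in the Arg1-led cluster, and in the Plac8-led one at 9.87 ± 5.12 in sham and 14.0 ± 6.15 in MCAO. Without the Arg1-led cluster Abcg1 fell further, by 1.94. The T or NK lymphocyte cluster, of 407 cells, had B cells as its second class. At resolution 2.0 clusters of 319 T or NK and 88 B cells were named, so this class may also hold B cells. Neutrophils and T or NK lymphocytes had 4 testable members each. Abcg2 fell in both, by 1.06 (adjusted p = 0.03, all genes 16.5% higher and 14.8% lower) and 1.24 (adjusted p = 0.032, all genes 1.91% and 2.77%), from 8.75% and 10.8% of its sham endothelial level; Slco1a4 also fell in lymphocytes. With doublets kept the Abcg2 change in neutrophils turned to 0.23. The Abcg2 calls were lost without sham 3, MCAO 2 or MCAO 3 (-0.94 to -0.72) in neutrophils and without sham 1, MCAO 1, MCAO 2 or MCAO 3 (-1.27 to -0.92) in lymphocytes, and that of Slco1a4 without sham 1, sham 3, MCAO 1 or MCAO 2 (-1.12 to -0.80) there.

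In astrocytes Abcb9 fell most clearly, with 114, 99.5 and 75.8 CPM in the sham libraries and 43.9, 56.4 and 52.8 in the MCAO libraries, without overlap, and a change of -0.90 ± 0.14 (SE, adjusted p = 1.3e-06). Slco1c1, the thyroxine carrier that astrocytes share with endothelial cells, had 368, 373 and 364 CPM in the sham libraries and 279, 283 and 281 in the MCAO libraries and fell by 0.39 ± 0.079 (adjusted p = 1.0e-04). Abcg4, a sterol exporter of glia and neurons, fell from 12.1 to 4.85 CPM (-1.35, adjusted p = 0.004) and Abcc10 from 18.3 to 11.3 (-0.72, adjusted p = 0.042). Slco2b1 rose from 24.2 to 41.5 CPM (0.75 ± 0.21, adjusted p = 0.0042), Abcf2 from 22.8 to 36.3 (0.67 ± 0.20, adjusted p = 0.0066) and Abcg1 from 5.4 to 13.3 (1.32 ± 0.44, adjusted p = 0.024, groups overlapping); the low-level Abcc1 and Slco4a1 rose too, by 1.43 and 1.29. Of 30 members tested 5 rose and 4 fell, beside 15.3% and 13.4% of all genes. The 5 that rose became 1 with DESeq2 and 1 when cells were clustered at resolution 2.0. The threshold was missed by Slco2b1 without sham 1 (0.59), Abcg4 without sham 3 (-1.05), Abcg1 without sham 2 or sham 3 (0.78 to 1.33), Abcc10 without any 1 library but MCAO 2 (-0.73 to -0.53), Slco4a1 without sham 1 or sham 3 (0.93 to 1.15) and Abcc1 without sham 3 (0.88). Abca1, Abcd3, Abcc4, Abcc5 and Abca2 did not pass; Abca1 was 71.3 ± 12.5 CPM in sham and 75.3 ± 5.68 in MCAO and Abcd3 99.8 ± 9.19 CPM in sham and 109.7 ± 2.73 in MCAO.

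A cluster led by Gm26772, Ptx3 and Gfap held 26.6% of MCAO and 3.79% of sham astrocytes, and in it Slco2b1 was at 87.8 ± 21.4 CPM, Slco1c1 at 154 ± 18.8 and Abcb9 at 24.7 ± 4.52. In the main, Cldn10-led cluster Slco2b1 was at 22.3 ± 7.61 in sham and 19.7 ± 4.20 in MCAO, Slco1c1 at 379 ± 5.49 and 326 ± 1.63, and Abcb9 at 98.5 ± 18.8 and 61.0 ± 7.88. These cluster levels are not TMM-scaled. The microglia markers, whose class leads for Slco2b1, summed to 1393 to 1716 CPM in sham and 3574 to 4249 CPM in MCAO in astrocytes, with 8 of 13 higher and none at 0. In the TMM-scaled fit without the Gm26772-led cluster Slco2b1 changed by -0.070 and Slco1c1 by -0.093, neither past the threshold, while Abcb9 still fell (-0.56). Against endothelial cells the response differed for 6 members (all genes, 16.4%), among them Slco1c1, by 0.32 ± 0.080 (SE, adjusted p = 0.0015), Slco2b1, by 0.81 ± 0.19 (SE, adjusted p = 5.2e-04), and Abcg1, by 1.46 ± 0.39 (SE, adjusted p = 0.0037), which was lost without sham 2 (0.88).

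In oligodendrocytes Abca2 fell and Slco3a1 rose. Abca2 had 352, 341 and 316 CPM in the sham libraries and 242, 269 and 289 in the MCAO libraries (-0.34 ± 0.087, adjusted p = 0.003), and Slco3a1 48.9, 73.8 and 52.2 CPM in the sham libraries and 84.2, 119 and 134 in the MCAO libraries (0.93 ± 0.18, adjusted p = 3.8e-04). Neither gene's groups overlapped, and Slco3a1 fell in pericytes, a difference that was not tested. Abcg1 fell from 60.3 to 40.5 CPM (-0.57 ± 0.18, adjusted p = 0.02) and Abce1 rose from 14.5 to 31.7 (1.12 ± 0.26, adjusted p = 9.1e-04). The call was lost for Abcg1 without sham 1, sham 3 or MCAO 1 (-0.56 to -0.39). Of 20 tested 2 rose and 3 fell, beside 11.4% and 10.3% of all genes. The 10 oligodendrocyte markers summed to 77924 to 85338 CPM in sham and 54776 to 60894 CPM in MCAO, with 8 of 10 lower.

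At the blood-cerebrospinal fluid barrier Slco1c1 moved against its fall in endothelial cells. Choroid plexus epithelium had 206, 201 and 210.4 CPM in the sham libraries and 234, 248 and 283 in the MCAO libraries, without overlap, a rise of 0.31 ± 0.070 (SE, adjusted p = 0.0019). Abca1 rose from 18 to 26.4 CPM (0.55 ± 0.17, adjusted p = 0.029) and Slco1a5, highest in this class, fell from 11.4 to 6.99 (-0.71 ± 0.24, adjusted p = 0.048). Abca4 was 55.1 ± 8.33 CPM in sham and 47.7 ± 5.32 in MCAO and did not pass. The calls were lost for Abca1 without sham 2, sham 3, MCAO 1 or MCAO 2 (0.44 to 0.58) and Slco1a5 without any 1 of the 6 libraries taken singly (-0.75 to -0.64). Of 25 tested 2 rose and 2 fell, beside 7.25% and 6.82% of all genes. In ependymal cells, which line the ventricles, Slco1c1 had 107, 136 and 139 CPM in the sham libraries and 37.3, 46.8 and 36.2 in the MCAO libraries and fell by 1.68 ± 0.30 (adjusted p = 9.6e-04); 0 of 8 tested members rose and 2 fell there (all genes, 3.83% and 2.8%), the other being Abcg2 at under 10% of its endothelial level, not called without MCAO 3 (-1.12). Endothelial markers in ependymal cells went from 1978 to 2958 CPM in sham to 1497 to 1705 in MCAO, and their part in this value was not tested. The ependymal cluster, of 348 cells, also had a marker score of 0.712 for neuroblasts, its second class. At resolution 2.0 clusters of 226 ependymal and 122 neuroblast cells were named, so the ependymal class may hold cells of another kind. The difference between the choroid plexus and endothelial responses was not tested.

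Abce1 passed the test in 5 classes (endothelial cells, microglia, border macrophages, monocyte-derived cells and oligodendrocytes), higher each time, and in none was it lower. Its log2 changes there ran from 0.55 to 1.59. In the capillary zone Abce1 did not pass (0.18 ± 0.10, adjusted p = 0.20 by edgeR). Over the 10 endothelial sub-clusters with at least 20 cells in every library, its MCAO mean was the lower one in 5. The median there was 99.4% of sham, without TMM scaling and with no test. Abcf2 rose in 3 (endothelial cells, microglia and astrocytes). Abcf1 rose in microglia alone of 12 classes tested, and among the zones fell in capillary cells. Abcf3 did not pass in any of 9 classes tested. Among the lipid exporters Abca1 rose in 4 classes (endothelial cells, microglia, monocyte-derived cells and choroid plexus epithelium) and fell in border macrophages, and Abcg1 rose in microglia and astrocytes and fell in oligodendrocytes and monocyte-derived cells. In microglia these 2 rises were lost or turned without the clusters named above, and the endothelial rise of Abca1 was lost without the groups of no zone (0.20). In monocyte-derived cells the Arg1-led cluster, at 51.8 ± 2.65 CPM of Abca1, held MCAO cells alone, while the Plac8-led cluster of both groups had 9.87 ± 5.12 CPM in sham and 14.0 ± 6.15 in MCAO.

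**Figure D5:**
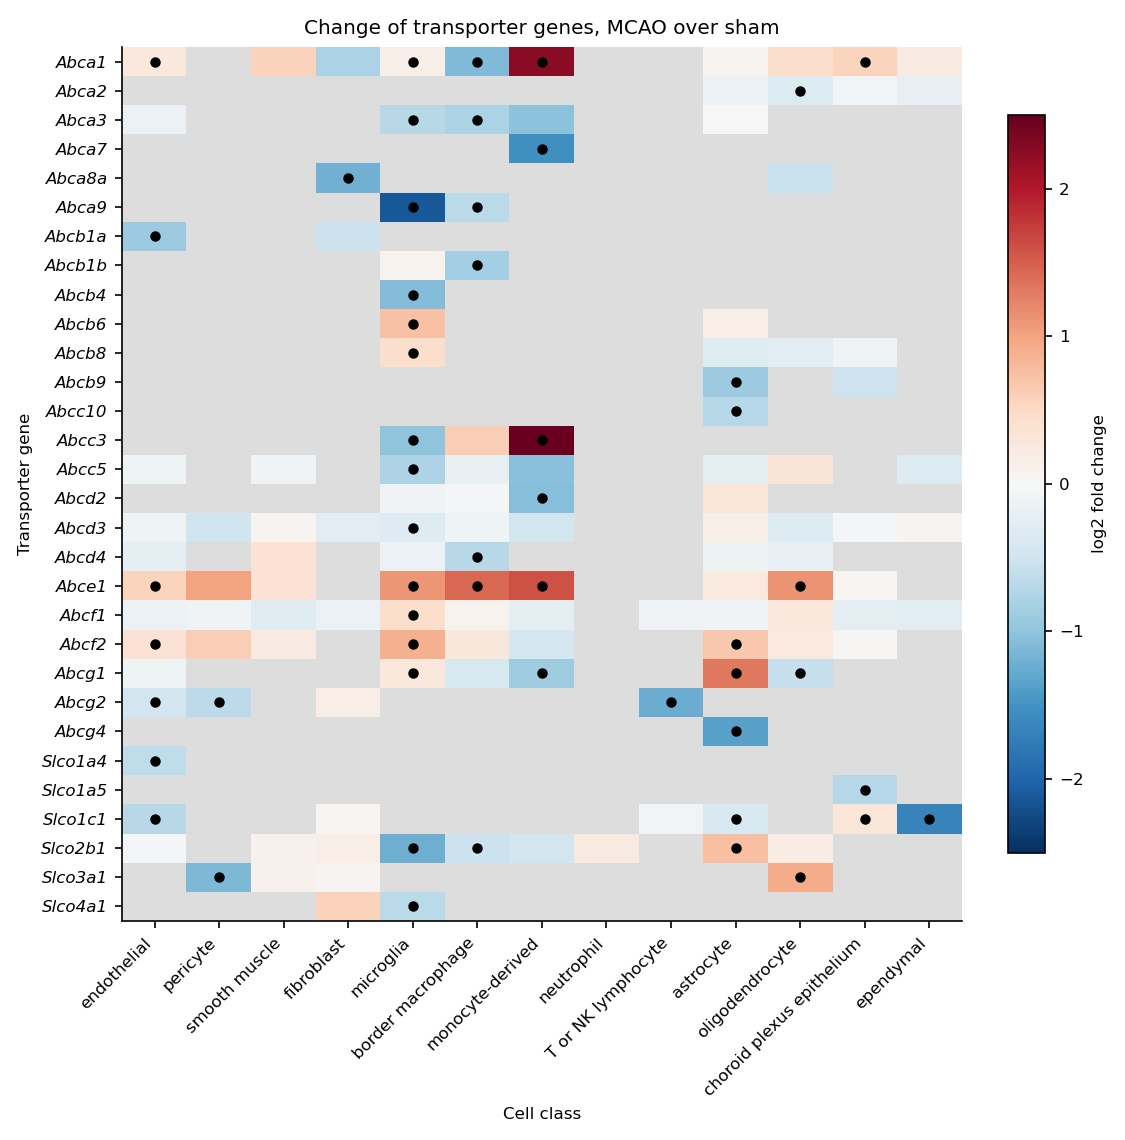
Log2 change, MCAO over sham, of 30 members (rows) by cell class (columns; blue lower, red higher; dots, adjusted p under 0.05 by edgeR). Grey cells were not tested or are under 10 CPM or 10% of the highest class; Abce1 is red with a dot in 5 classes, and Slco1c1 is red with a dot in choroid plexus epithelium and blue with a dot in endothelial cells, astrocytes and ependymal cells.

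The abundant endothelial members also had UMIs in classes far below the endothelial level, where several also passed as lower. In microglia Slco1a4 was at 3.81% of its endothelial level in sham and 3.46% in MCAO, Abcg2 at 7.67% and 7.45%, Abcb1a at 3.03% and 3.38%, and Slco1c1 at 5.39% and 6.01%. The summed endothelial markers in microglia were at 5.57% and 4.96% of their endothelial sum. Slco1a4 passed as lower in 9 classes, endothelial cells among them. Outside endothelial cells its sham level was highest in pericytes, at 9.44% of endothelial cells, and in T or NK lymphocytes, at 8.14%, where the endothelial markers summed to 13.4% and 10.3% of their endothelial sum. Whether free or endothelial RNA enters these values was not tested.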

How the data were processed

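Gene counts were made by the authors with Cell Ranger and STAR on mm10, per the submitters' processing notes, which name no versions, and were deposited as raw UMI counts per gene and barcode, not normalized. Reads shared by near-identical genes may have been dropped or assigned to either copy, and whether a neighbouring transcript enters a 3' count was not tested.

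Barcodes with under 300 genes (15) or over 10% mitochondrial UMIs (1298) and simulated-neighbour doublet calls (4662, 6.48% to 9.42% of a library) were removed. The 2000 most variable genes, members excluded, gave 30 principal components and Leiden clusters (leidenalg 0.10.2, resolution 1.0). For these clusters genes were centred over the cells of all libraries together, so differences between sham and MCAO could shape them. Endothelial cells were clustered again for zones, with each gene centred within its library. To be named, a cluster needed at least 3 markers found in 25% of its cells. Where a second class came close, the name was kept only if the leading genes held more markers of the first class. The smooth muscle cluster (second class pericyte) and the Gm26772-led astrocyte cluster were kept this way. The latter had a marker score of 0.572 for astrocytes and 0.301 for microglia. This naming rule was set after the clusters were seen, and 6 clusters stayed without a name.

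UMIs were summed per library and class (at least 20 cells in each library) and tested with edgeR 4.0.16 (R 4.3.3; filterByExpr, TMM, glmQLFit with robust, glmQLFTest, group as the only term), with Benjamini-Hochberg adjustment over all genes of the class and a threshold of 0.05. The fit moderates the spread of each gene by that of all genes. Standard errors are the log2 change over the root of F. Differences between classes or zones came from an interaction model with library as a term. The fit was tested on simulated counts. The genes named per class had at least 10 CPM and 10% of the highest class in 1 group and passed the threshold, up to 10 in each direction in endothelial cells, microglia and astrocytes and 4 elsewhere; a fixed set of barrier, lipid and organic anion genes was given whatever its values. From each pathway list the 2 highest and 2 lowest that passed were named; Slc2a1 and the low-level members were added after their values were seen.

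Alternatives were RLE scaling, DESeq2 1.42.0, no filter, each library left out, a replicate block, doublets kept, resolution 2.0, no mitochondrial or ribosomal protein genes, and zones from per-cell scores; leaving out doubted clusters was added after the data were seen. The members and lists were chosen with earlier results of these data known. The 4 promoters shown come from RefSeq on GRCm38.p6, positions from GENCODE vM21. Intervals and floors cover counting error only. Some genes and 1 capillary sub-cluster are not reported here.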

Additional observations from a re-analysis of the deposited data

Results flagged for a closer look

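These differences of the log2 change (MCAO over sham) passed an interaction test with library as a term, among members at a described level in both units compared; values are differences ± SE from edgeR's quasi-likelihood test.

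In venous minus capillary endothelial cells the changes of 6 transporters were more negative: Slco1c1 by -1.59 ± 0.10, Slco1a4 by -1.11 ± 0.059, Abcb1a by -0.91 ± 0.084, Abcc4 by -0.82 ± 0.21, Abcg2 by -0.54 ± 0.070 and Slco2b1 by -0.48 ± 0.13. Of the ribosome-acting genes 3 were more positive in venous cells, Abcf2 by 1.18 ± 0.25, Abce1 by 0.79 ± 0.29 and Abcf1 by 0.60 ± 0.14 (adjusted p over these 9 genes from 1.7e-74 to 0.038). Abcf3 was not among those that passed. Of the 9, Slco1c1 alone passed without the Ackr1-led sub-cluster.

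In microglia minus endothelial cells the differences were -1.15 ± 0.056 for Slco2b1, -0.61 ± 0.15 for Abcc5 and -0.49 ± 0.17 for Abca3, the changes in microglia being the more negative. They were 0.64 ± 0.069 for Abcf1, 0.61 ± 0.13 for Abce1, 0.59 ± 0.10 for Abcf2 and 0.42 ± 0.11 for Abcg1, with microglia the more positive (adjusted p over these 7 genes from 9.9e-20 to 0.019).

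In astrocytes minus endothelial cells the differences were 1.46 ± 0.39 for Abcg1, 0.81 ± 0.19 for Slco2b1 and 0.32 ± 0.080 for Slco1c1, which fell less in astrocytes (adjusted p from 5.2e-04 to 0.0037).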

How the results depend on the processing

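Of 2679 values of single genes recomputed under the alternatives, 2438 kept their direction and side of the threshold, 207 lost and 23 gained a call, and 11 changed sign; 124 of the losses came from leaving out 1 library and 28 from DESeq2. The cause of each change below was not tested.

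Counts of called members moved by over 1.5 times in few places. In astrocytes the 5 higher members became 1 with DESeq2, 1 at resolution 2.0, 2 without the Gm26772-led cluster, and 3 to 5 with 1 library left out. With zones from per-cell scores the higher members were 1 in place of 7 in capillary, 2 in place of 0 in arterial and 5 in place of 3 in venous cells, and 9 in place of 5 fell in venous cells. Without the Ackr1-led sub-cluster 1 rose and 3 fell in venous cells, and 1 in place of 11 differed from capillary cells. Summed over the 10 smaller classes, 32 lower calls became 15 with DESeq2 and 14 to 25 with 1 library left out. With any 1 of the 6 libraries left out arterial cells gave 1 higher member, Abcb1b, and 0 to 2 members differed between pericytes and endothelial cells.

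The sign changed for Slco1a4 and Slco2b1 in astrocytes (-0.56 and -0.048 at resolution 2.0, -0.59 and -0.070 without the Gm26772-led cluster), for Slco4a1 (0.036), Abca1 (-0.17) and Abcg1 (-0.0053) in microglia without the Mmp12-led and Spp1-led clusters, for Abcg2 in neutrophils with doublets kept (0.23), and, without the Ackr1-led sub-cluster, for Slco2b1 in venous cells (0.19) and for the venous minus capillary differences of Slco2b1 (0.18) and Abce1 (-0.38).

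The shared replicate numbers did not pair the libraries: deviations of same-numbered libraries correlated at -0.012, 0.18 and -0.36 in endothelial cells, and 1 of 3 numbers correlated best with its own. With the replicate number as a block 9 members were higher and 10 lower in endothelial cells and 9 and 18 in microglia; among single genes it lost 8 calls and gained 3, and the endothelial call of Abcb1a was among those lost. Few cells limit the small classes: 4 members could be tested in neutrophils and 4 in lymphocytes.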
